A study of Homo sapiens with 10 samples.

Results

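The genes described here were 9 transcription factors that set the identity of blood progenitors and myeloid cells: MYB, SOX4, GFI1, CEBPA, CEBPB, CEBPD, CEBPE, SPI1 and RUNX1. They were found by gene symbol: a probe set was taken if the platform annotation gave it 1 symbol and that symbol was on the list. This gave 8 genes with 1 probe set each, among 7840 probe sets with 1 symbol. The probe set that lists RUNX1 carries several symbols and was not used. The cells were U937, a human monocytic line, and all groups, control included, had been differentiated with interferon gamma. In the cross-linked groups an IgG receptor on the cell surface was clustered: CD64, the high-affinity receptor, for 6 h or 2 h, or CD32, the low-affinity receptor, for 6 h or 2 h. The control cells had no cross-linking and no time listed. Each of the 5 groups had 2 arrays, which makes 10, and nothing in the labels states that the duplicates came from separate cultures. The p-values therefore cover only the array-to-array spread, which may be technical. U937 is 1 tumour-derived line and not primary monocytes. One CD32 2 h array has a source name that reads otherwise, and its title was followed.

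These factors work as a network. MYB sustains dividing progenitors and its level drops as myeloid cells mature. SOX4, of the HMG-box family, is a progenitor factor, and GFI1 is a zinc finger repressor that favours granulocytes over monocytes. PU.1, the product of SPI1, and C/EBP alpha, the product of CEBPA, direct progenitors into the monocyte and granulocyte lines. C/EBP beta and delta act in the inflammatory response of mature cells, and C/EBP epsilon acts in late granulocyte maturation.

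Each array gave 1 signal value per probe set, a linear intensity scaled per array by the submitters. The median signal over 8793 probe sets lay between 101.2 and 152.7. Any value under 37.5, called the floor here, was raised to it before log2 was taken. The 8 probe sets were among the 7708 tested with limma, and each was above the floor on at least 2 arrays. Of 5 monocytic markers on the array 4 were above the floor on every array, and CD14, a receptor for bacterial lipopolysaccharide, read 9.4 and 4.1 in control. Of 7 T cell markers 2 were above it on every array, as were 2 of 5 for B cells, 1 of 6 for natural killer cells, 1 of 6 for erythroid cells and platelets, and 1 of 9 for epithelial cells and fibroblasts. The 18 probe sets for added bacterial and bacteriophage transcripts averaged 9.32 log2 units in CD64 6 h, 10.87 in CD64 2 h, 12.36 in CD32 6 h, 11.25 in CD32 2 h and 10.63 in control. The 3' to 5' actin signal ratio was 1.12, 1.81, 1.99, 1.56 and 1.30 in the same order. These technical measures went with the groups and cannot be told apart from them. The number of arrays limits the precision.

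MYB, SOX4 and GFI1 were lower than control in all 4 cross-linked groups. CEBPA was lower at 6 h with either receptor and not called at 2 h. CEBPB was higher in 2 of the 4 comparisons, by 1.33-fold, and CEBPD and CEBPE were called in none. SPI1 went in opposite directions: it was lower with CD64 at both times and higher with CD32 at 6 h. Calls required an adjusted p under 0.05 (limma, Benjamini-Hochberg over all probe sets tested). With CD64 at 6 h, 1 of the 8 was called higher and 5 lower, beside 10.7% of all probe sets higher and 9.94% lower (20.6% in all). With CD64 at 2 h, 0 were called higher and 4 lower, beside 7.64% and 8.24% (15.9%). With CD32 at 6 h, 1 was called higher and 4 lower, beside 9.63% and 10.3% (20%). With CD32 at 2 h, 1 was called higher and 3 lower, beside 8.86% and 6.6% (15.5%). The median log2 change of the 8 against control was -1.05, -0.60, -0.72 and -0.01 in that order, beside -0.04, -0.13, -0.08 and -0.03 for all probe sets tested. The genes were chosen with earlier results of these data known, so their counts are descriptive only. The 4 comparisons share the same 2 control arrays. The limma F-test over them called MYB, SOX4, GFI1, CEBPA and SPI1, and 34.5% of all probe sets.

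**Figure D1:**
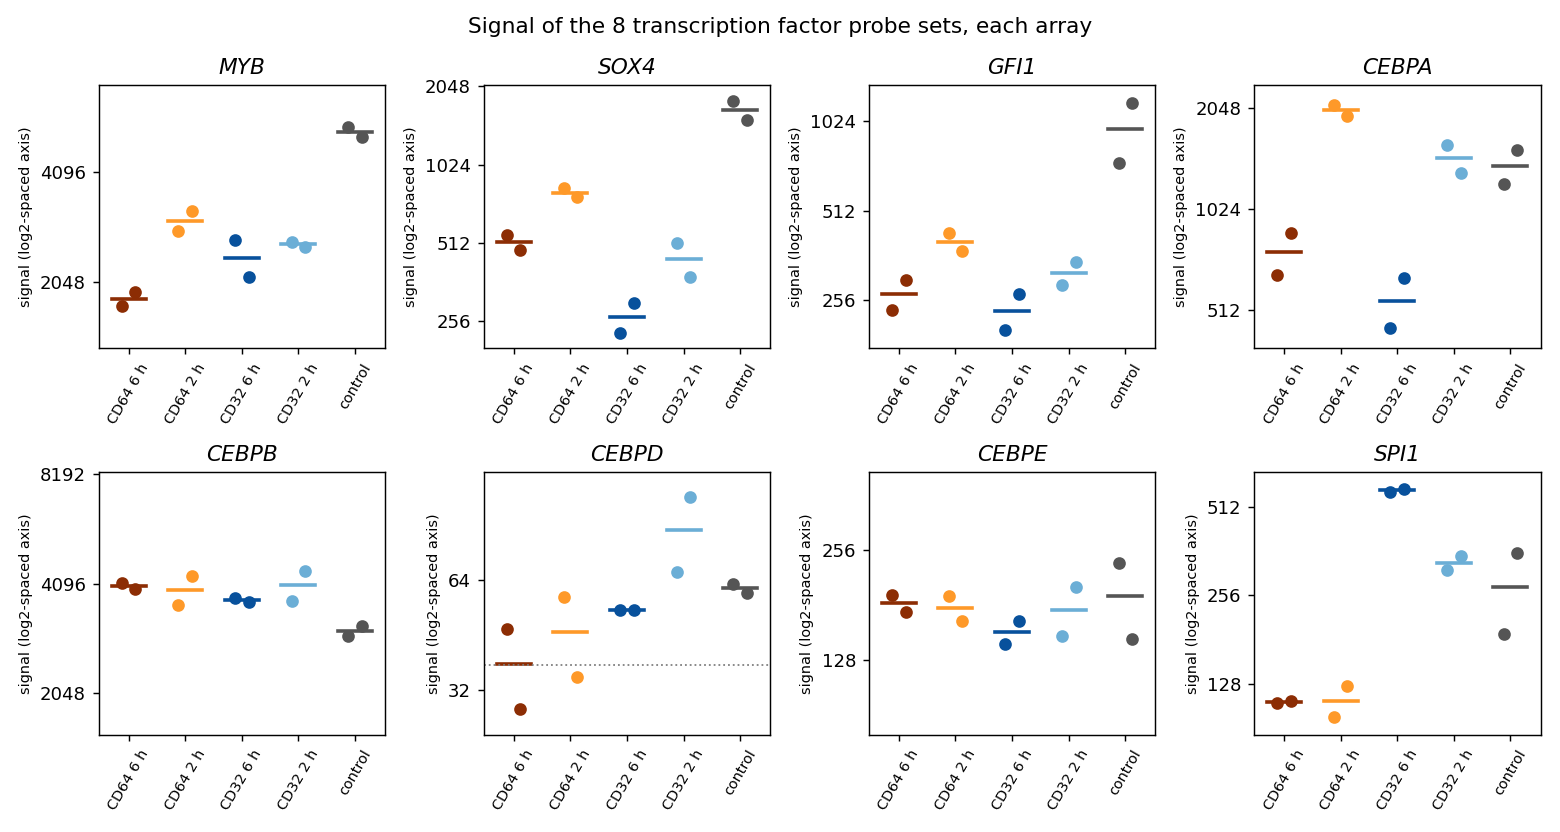
Signal of each probe set (vertical axis, linear signal on a log2-spaced scale) on each of the 2 arrays of the 5 groups, with a bar at the group mean; the dotted line in the CEBPD panel is the floor of 37.5. The control arrays lie above all others for MYB, SOX4 and GFI1, and the SPI1 arrays run from 98.2 in CD64 2 h to 589 in CD32 6 h.

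MYB fell in each cross-linked group. Its signal was 1756.3 and 1919.4 in CD64 6 h, 2816.3 and 3197.6 in CD64 2 h, 2662.8 and 2109.6 in CD32 6 h, 2634.5 and 2549 in CD32 2 h, and 5437.4 and 5102.3 in control. All 8 cross-linked arrays were below both control arrays. The fall was 2.87-fold after 6 h of CD64 (log2 -1.52 ± 0.117 SE, adjusted p = 1.22e-05, limma) and 1.76-fold after 2 h (-0.81 ± 0.117, adjusted p = 0.00102). It was 2.22-fold after 6 h of CD32 (-1.15 ± 0.117, adjusted p = 6.04e-05) and 2.03-fold after 2 h (-1.02 ± 0.117, adjusted p = 0.0002). In order of level control came first, then CD64 2 h, CD32 2 h, CD32 6 h and CD64 6 h, and of these neighbours CD32 2 h and CD32 6 h overlapped.

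SOX4 had the largest fall of the 8 in any of the 4 comparisons with control, 6.26-fold after 6 h of CD32 (log2 -2.65 ± 0.182 SE, adjusted p = 4.81e-06, limma). Its signal was 547.3 and 480.7 in CD64 6 h, 831.9 and 766.7 in CD64 2 h, 231.9 and 300.3 in CD32 6 h, 510.2 and 380.5 in CD32 2 h, and 1799.1 and 1515.6 in control. No cross-linked array reached the control arrays, and the CD32 arrays of each time were below the CD64 arrays of that time. SOX4 fell 3.22-fold after 6 h of CD64 (-1.69 ± 0.182, adjusted p = 8.82e-05), 2.07-fold after 2 h of CD64 (-1.05 ± 0.182, adjusted p = 0.00309) and 3.75-fold after 2 h of CD32 (-1.91 ± 0.182, adjusted p = 5.53e-05). Control was followed by CD64 2 h, CD64 6 h, CD32 2 h and CD32 6 h, and only the CD64 6 h and CD32 2 h arrays overlapped among neighbours.

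GFI1 fell by 3.52-fold after 6 h of CD64 (log2 -1.82 ± 0.251 SE, adjusted p = 0.000438, limma) and by 4.01-fold after 6 h of CD32 (-2.0 ± 0.251, adjusted p = 0.000252). Its signal was 236.3 and 299.7 in CD64 6 h, 431.6 and 373.4 in CD64 2 h, 202.6 and 269.3 in CD32 6 h, 288 and 344.8 in CD32 2 h, and 743.4 and 1181.2 in control. The control arrays were far apart, yet both were above every cross-linked array. At 2 h the fall was 2.33-fold with CD64 (-1.22 ± 0.251, adjusted p = 0.00778) and 2.97-fold with CD32 (-1.57 ± 0.251, adjusted p = 0.00181). Without control replicate 2 the CD64 2 h fall was -0.89 (adjusted p = 0.0646), and without CD64 2 h replicate 2 it was -1.12 (adjusted p = 0.0566). Among neighbours in order of level, CD32 2 h and CD64 6 h overlapped, and so did CD64 6 h and CD32 6 h. Of all probe sets tested, 1.61% were called lower in each of the 4 comparisons with control, as MYB, SOX4 and GFI1 were, and 2.91% were called higher in each, which none of the 8 was.

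The promoter windows of these 3 genes are shown because they moved together. Each window holds 250 bases before and 50 after a RefSeq transcription start (GRCh38.p14), on the gene's strand, and RefSeq windows were found for 7 of the 9 factors. The motifs searched, 5 in all, were read on both strands: GAGGAA for PU.1, TTGCNNAA for C/EBP, TGTGGT for RUNX, CAACNG for MYB, and GGGCGG, the GC box of many promoters. Capitals mark matches to the first 4, and GC boxes are left in lower case. GFI1 has 3 windows, and window 1, which lies at chr1:92486876-92487175, held only a GC box and is not shown.
MYB promoter, chr6:135181058-135181357, plus strand: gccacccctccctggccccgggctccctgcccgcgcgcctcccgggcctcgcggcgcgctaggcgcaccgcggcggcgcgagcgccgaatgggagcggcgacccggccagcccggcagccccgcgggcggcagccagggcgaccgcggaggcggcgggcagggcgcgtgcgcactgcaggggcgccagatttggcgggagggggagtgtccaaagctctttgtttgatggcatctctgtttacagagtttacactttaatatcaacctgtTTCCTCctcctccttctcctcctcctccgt
SOX4 promoter, chr6:21593501-21593800, plus strand: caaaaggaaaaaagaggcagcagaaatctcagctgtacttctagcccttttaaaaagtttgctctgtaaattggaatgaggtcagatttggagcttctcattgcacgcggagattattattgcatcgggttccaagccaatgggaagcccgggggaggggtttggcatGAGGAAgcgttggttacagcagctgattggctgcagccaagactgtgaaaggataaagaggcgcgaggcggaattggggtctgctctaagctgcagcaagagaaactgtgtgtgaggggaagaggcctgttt
GFI1 promoter, window 2, chr1:92486050-92486349, minus strand: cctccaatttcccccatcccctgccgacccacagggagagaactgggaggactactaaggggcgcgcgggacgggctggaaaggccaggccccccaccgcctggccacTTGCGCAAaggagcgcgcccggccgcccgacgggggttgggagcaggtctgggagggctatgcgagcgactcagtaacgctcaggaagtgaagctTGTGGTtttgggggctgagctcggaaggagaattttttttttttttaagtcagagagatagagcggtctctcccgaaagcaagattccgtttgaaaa
GFI1 promoter, window 3, chr1:92483765-92484064, minus strand: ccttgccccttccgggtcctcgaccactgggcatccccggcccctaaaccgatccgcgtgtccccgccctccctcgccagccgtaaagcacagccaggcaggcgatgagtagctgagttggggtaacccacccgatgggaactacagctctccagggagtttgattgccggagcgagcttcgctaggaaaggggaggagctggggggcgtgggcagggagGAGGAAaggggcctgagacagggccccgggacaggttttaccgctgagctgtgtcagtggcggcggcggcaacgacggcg

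The PU.1 motif began at position 21 after the start in MYB, on the other strand. It began 82 bases before the start in SOX4 and 30 bases before the start in window 3 of GFI1. Window 2 of GFI1 held a C/EBP motif, which reads the same on both strands, 142 bases before the start, and a RUNX motif 47 bases before it. A GC box lay 126 bases before the start in MYB, and 76, 120 and 187 bases before it in GFI1 windows 1, 2 and 3. None of the marked motifs overlapped another. The 7 factors with a window have 10 windows in all, and the PU.1 motif was in 5 of these, those of MYB, SOX4, GFI1, RUNX1 and CEBPE, which was called in no comparison. The C/EBP motif was in 1 of the 10, the RUNX motif in 1, the MYB motif in 2 and the GC box in 8. Of 35116 promoter windows of the same length, 27.9% held the PU.1 motif, 10.5% the C/EBP motif, 13.1% the RUNX motif, 32.9% the MYB motif and 45% the GC box. A match describes these letters only and is not a measured binding site.

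CEBPA fell at 6 h with both receptors. Its signal was 651.3 and 866.4 in CD64 6 h, 2085.5 and 1938.2 in CD64 2 h, 451.1 and 637.3 in CD32 6 h, 1588.5 and 1310.1 in CD32 2 h, and 1216.9 and 1536.4 in control. The 6 h arrays were all below control, the CD64 2 h arrays were above it, and the CD32 2 h arrays overlapped with it. After 6 h the level was 1.82-fold lower with CD64 (log2 -0.86 ± 0.192 SE, adjusted p = 0.0081, limma) and 2.55-fold lower with CD32 (-1.35 ± 0.192, adjusted p = 0.000599). After 2 h the difference from control was 0.56 ± 0.192 with CD64 (adjusted p = 0.078) and 0.08 ± 0.192 with CD32 (adjusted p = 0.867). A fit of only the groups compared did call the CD64 2 h rise (adjusted p = 0.0413). Between 2 h and 6 h CEBPA fell 2.68-fold with CD64 (-1.42 ± 0.192, adjusted p = 0.000883) and 2.69-fold with CD32 (-1.43 ± 0.192, adjusted p = 0.00299). The interaction of receptor and time was 0.01, with a 95% interval from -0.59 to 0.61. The CD64 6 h call against control was lost without control replicate 2 (adjusted p = 0.0818), without CD64 6 h replicate 1 (0.0848), without the filter on low values (0.059) and without the variance trend (0.0519). The CD32 fall between times was lost without CD32 2 h replicate 1 (adjusted p = 0.0563) and without the variance trend (0.0611).

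CEBPB, which encodes an activator of inflammatory genes, differed little between groups. Its signal was 4119.8 and 3950 in CD64 6 h, 3571.5 and 4305.3 in CD64 2 h, 3745.7 and 3635.4 in CD32 6 h, 3662.3 and 4441.1 in CD32 2 h, and 2941.5 and 3123 in control. All 8 cross-linked arrays were above both control arrays, and the cross-linked groups overlapped among neighbours in order of level. CEBPB rose 1.33-fold after 6 h of CD64 (log2 0.41 ± 0.115 SE, adjusted p = 0.0261, limma) and 1.33-fold after 2 h of CD32 (0.41 ± 0.115, adjusted p = 0.0343). The difference was 0.37 ± 0.115 after 2 h of CD64 (adjusted p = 0.0514) and 0.28 ± 0.115 after 6 h of CD32 (adjusted p = 0.114). Leaving out any 1 of the arrays compared ended the CD64 6 h call, with adjusted p between 0.0677 and 0.134, and so did dropping the filter on low values (0.0763) or the variance trend (0.135). The CD32 2 h call was lost without control replicate 1 (0.15), control replicate 2 (0.0832) or CD32 2 h replicate 2 (0.251), and under 3 of the other settings (0.0514 to 0.16).

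CEBPD and CEBPE gave no call in any of the 9 comparisons. CEBPD read 47 and 28.3 in CD64 6 h, 57.5 and 34.7 in CD64 2 h, 53.2 and 53.2 in CD32 6 h, 67.5 and 108.1 in CD32 2 h, and 62.7 and 58.9 in control. These values lie near the floor, 1 array of each CD64 group is under it, and the 95% interval of the CD64 6 h difference from control ran from -1.30 to 0.24 on the log2 scale. CEBPE, the granulocyte factor of the family, read 193.7 and 173.9 in CD64 6 h, 191.4 and 163.8 in CD64 2 h, 142.1 and 163.9 in CD32 6 h, 149.3 and 202.6 in CD32 2 h, and 236 and 146.6 in control. All 4 cross-linked groups overlapped with control. The CEBPE log2 differences from control lay between -0.29 and -0.02, and with an SE of 0.331 their intervals reached from -1.02 to 0.71.

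**Figure D2:**
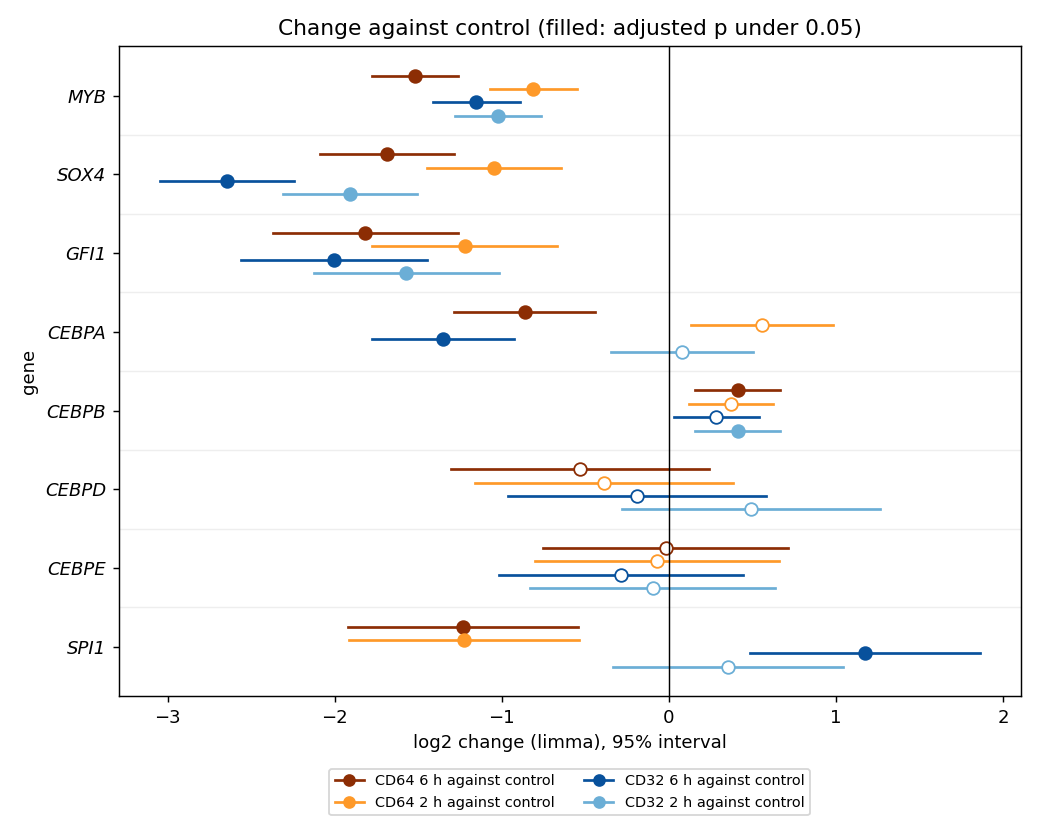
Log2 change of each gene against control (horizontal axis) with its 95% interval from limma, for CD64 6 h, CD64 2 h, CD32 6 h and CD32 2 h; filled points have an adjusted p under 0.05. MYB, SOX4 and GFI1 lie left of 0 in all 4 comparisons, and SPI1 lies at -1.23 and -1.23 with CD64 and at 1.17 and 0.35 with CD32.

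SPI1, which encodes PU.1, separated the receptors. Its signal was 109.6 and 111.4 in CD64 6 h, 98.2 and 125.5 in CD64 2 h, 579.6 and 589 in CD32 6 h, 313.1 and 349.9 in CD32 2 h, and 188.7 and 357 in control. All 4 CD64 arrays were below both control arrays, both CD32 6 h arrays were above them, and the CD32 2 h arrays lay between them. SPI1 was 5.29-fold lower after 6 h of CD64 than after 6 h of CD32 (log2 -2.40 ± 0.311 SE, adjusted p = 0.000423, limma) and 2.98-fold lower after 2 h of CD64 than after 2 h of CD32 (-1.58 ± 0.311, adjusted p = 0.00598). The 6 h difference was called under 11 of 11 alternative settings, with adjusted p between 0.000221 and 0.00794. The 2 h difference was lost only without CD32 2 h replicate 2 (adjusted p = 0.0556) among the 11.

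Against control SPI1 fell 2.35-fold after 6 h of CD64 (log2 -1.23 ± 0.311 SE, adjusted p = 0.0162, limma) and 2.34-fold after 2 h of CD64 (-1.23 ± 0.311, adjusted p = 0.0222). It rose 2.25-fold after 6 h of CD32 (1.17 ± 0.311, adjusted p = 0.0221), and after 2 h of CD32 the difference was 0.35 ± 0.311 (adjusted p = 0.545). Calls in opposite directions by CD64 and CD32 at 6 h were made for 0.96% of all probe sets, or 74. The comparisons with control turn on the control arrays, which differ by more than the CD32 or CD64 pairs. Without control replicate 2 the changes with CD64 were -0.77 at 6 h (adjusted p = 0.103) and -0.77 at 2 h (0.117), and without control replicate 1 the change after 6 h of CD32 was 0.71 (0.13). The CD64 6 h call was also lost without CD64 6 h replicate 1 (0.0746) or 2 (0.0726), the CD32 6 h call without CD32 6 h replicate 1 (0.103) or 2 (0.0989), and the CD64 2 h call without CD64 2 h replicate 1 (0.124). Quantile and cyclic loess normalization also ended the CD64 2 h call, at -0.94 (adjusted p = 0.115) and -0.97 (0.0893). Dropping the filter on low values ended the CD64 2 h call (0.0578) and the CD32 6 h call (0.0572), and fitting only the groups compared ended the CD64 calls at 6 h (0.0707) and 2 h (0.104).

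Other measures followed SPI1 in part. The summed signal of the 5 monocytic markers on the array ranged from 7127 to 8266 in CD64 6 h, from 5121 to 5736 in CD64 2 h, from 10025 to 10380 in CD32 6 h, from 7653 to 8314 in CD32 2 h and from 8113 to 8286 in control. The added bacterial transcripts, given above, were also highest in CD32 6 h and lowest in CD64 6 h. The 3' to 5' actin ratio was likewise highest in CD32 6 h (1.99) and lowest in CD64 6 h (1.12). In CD64 2 h (1.81) it was above control (1.30). The marker sums of CD64 6 h overlapped with control, and the bacterial transcripts of CD64 2 h were above control. SPI1 was below control in both of these groups. CD14, 1 of the 5 markers summed, did not follow SPI1 at 6 h. It read 128.6 and 71.9 in CD64 6 h, and 54.4 and 18.4 in CD32 6 h, the last under the floor. The other markers of the sum are not given singly here. The part of these measures in the SPI1 result was not tested. As RNA was measured in bulk, fewer cells with the transcript and less transcript per cell cannot be told apart.

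Between receptors, SOX4 was the other gene of the 8 that was called at both times. It was 1.94-fold higher after 6 h of CD64 than after 6 h of CD32 (log2 0.96 ± 0.182 SE, adjusted p = 0.00449, limma) and 1.81-fold higher at 2 h (0.86 ± 0.182, adjusted p = 0.0085). So 2 of the 8 were called in the comparison of CD64 with CD32 at each time, 1 higher and 1 lower. Of all probe sets, 9.81% were higher and 7.8% lower at 6 h (17.6% in all), and 6.86% and 9.43% at 2 h (16.3%). The SOX4 difference at 2 h was lost without CD32 2 h replicate 2 (adjusted p = 0.086) or CD64 2 h replicate 1 (0.0641). The remaining 6 genes were not called, and for several the interval leaves room for a difference. The CEBPA difference was 0.49 at 6 h (95% interval 0.06 to 0.91, adjusted p = 0.115) and 0.48 at 2 h (0.05 to 0.90, adjusted p = 0.128). At 2 h a fit of only the groups compared gave CEBPA an adjusted p of 0.032. The MYB difference at 6 h was -0.37 (-0.63 to -0.11, adjusted p = 0.0538), with both CD64 arrays below both CD32 arrays; quantile normalization gave an adjusted p of 0.0411. The CEBPD difference at 2 h was -0.88 (-1.65 to -0.11, adjusted p = 0.124), with both CD64 arrays below both CD32 arrays. These CEBPD values lie near the floor. The CEBPB intervals were narrower, from -0.13 to 0.38 at 6 h and from -0.29 to 0.21 at 2 h.

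Between 2 h and 6 h, MYB, SOX4 and CEBPA fell with CD64, and SOX4 and CEBPA fell with CD32. These are 0 higher and 3 lower of 8 with CD64, beside 7.56% and 6.25% of all probe sets (13.8%), and 0 and 2 with CD32, beside 2.04% and 2.43% (4.46%). MYB was 1.63-fold lower after 6 h than after 2 h of CD64 (log2 -0.71 ± 0.117 SE, adjusted p = 0.00261, limma), while with CD32 the difference was -0.13 ± 0.117 (adjusted p = 0.638). The interaction of receptor and time for MYB was -0.58 ± 0.166 (adjusted p = 0.0465), the 1 such call among the 8, beside 6.72% of all probe sets called with a positive and 4.75% with a negative value (11.5%). That call was lost under 12 of 15 alternative settings, among them quantile normalization (adjusted p = 0.0866). Without the single arrays that ended it, each of the 8 except CD32 6 h replicate 2, the interaction lay between -0.67 and -0.41. SOX4 was 1.56-fold lower after 6 h than after 2 h of CD64 (-0.64 ± 0.182, adjusted p = 0.0401) and 1.67-fold lower with CD32 (-0.74 ± 0.182, adjusted p = 0.0471). Both SOX4 time calls were lost without any 1 of the arrays compared, with adjusted p between 0.0991 and 0.221 for CD64 and between 0.0593 and 0.258 for CD32. SPI1 was not called between times: the difference was -0.01 ± 0.311 with CD64 (adjusted p = 1) and 0.82 ± 0.311 with CD32 (adjusted p = 0.177), although both CD32 6 h arrays were above both CD32 2 h arrays.

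**Figure D3:**
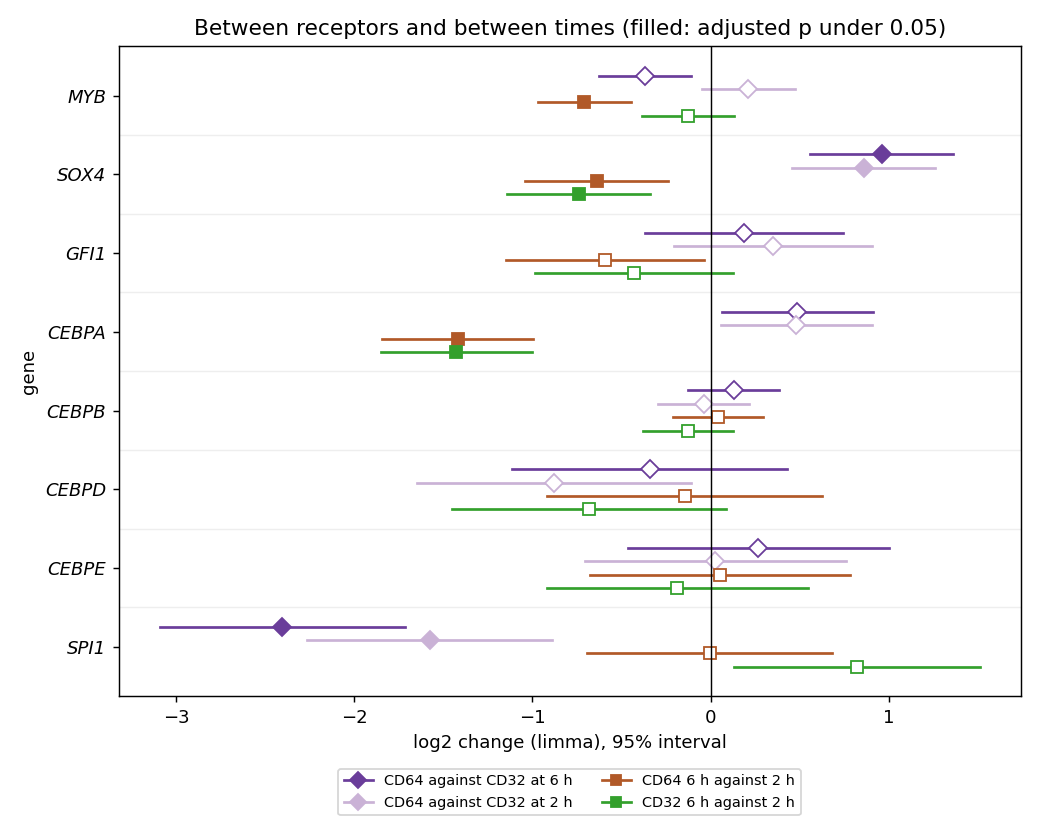
Log2 difference of each gene between receptors (CD64 over CD32, diamonds) and between times (6 h over 2 h, squares) with its 95% interval from limma; filled points have an adjusted p under 0.05. SPI1 lies at -2.40 and -1.58 between receptors, SOX4 at 0.96 and 0.86, and CEBPA at -1.42 and -1.43 between times.

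Over the 10 arrays the log2 signals of MYB, SOX4 and GFI1 followed each other, with Pearson r of 0.78 for MYB and SOX4, 0.87 for MYB and GFI1, and 0.89 for SOX4 and GFI1. CEBPA was less like them, at 0.48 to 0.63, and SPI1 lay between -0.43 and 0.13 against the 3 of them. These values describe 10 arrays that fall into 5 groups and share 2 control arrays. A search over all tested probe sets with 1 symbol keeps the highest r, so the values below are high by selection. By a fixed rule the 3 genes most like each called gene were named. For SPI1 these were GNAI2, a G protein subunit (r = 0.981), NUCB1, a calcium-binding Golgi protein (0.976), and VAT1, a vesicle membrane protein (0.973). For MYB they were SPAG7 (0.982), the lysosome-associated protein LAMP5 (0.960) and the Fanconi anaemia gene FANCE (0.959). For SOX4 they were IGLL1, a surrogate light chain of immature B cells (0.976), FAH, an enzyme of tyrosine breakdown (0.972), and the mannose receptor family member MRC2 (0.960). For GFI1 they were the mitotic protease ESPL1 (0.970), the SNARE VAMP8 (0.958) and DLEU1 (0.954). For CEBPA they were the splicing factor RBM5 (0.949), PTTG1IP (0.948) and CLNS1A (0.926).

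**Figure D4:**
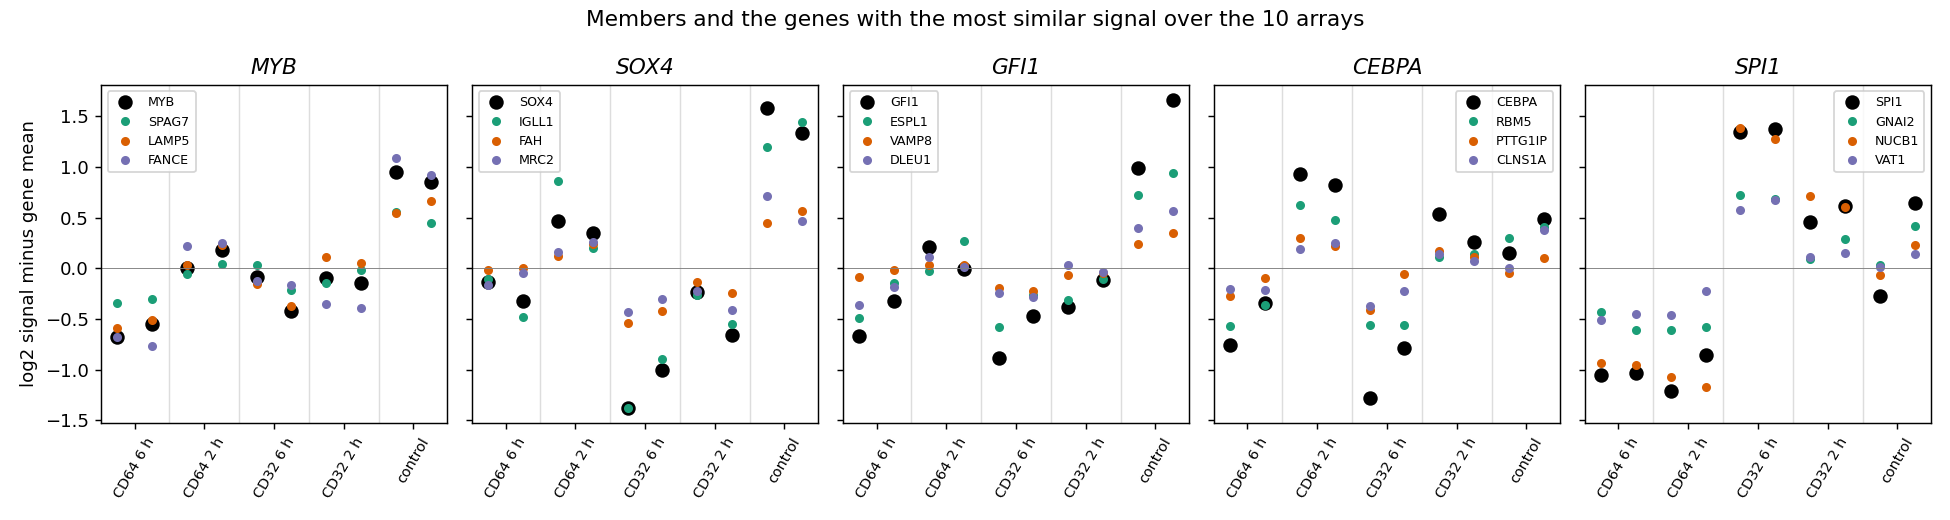
Log2 signal on each array minus the gene's mean over the 10 arrays (vertical axis), for the 5 genes called by the F-test (black) and the 3 genes most correlated with each (colours), with arrays ordered by group. SPI1, GNAI2, NUCB1 and VAT1 are lowest in the CD64 arrays and highest in CD32 6 h; the correlations are 0.973 to 0.981.

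Among partners and regulators of these factors, more were called higher than lower against control. This list and those below were drawn up with earlier results of these data known, so their counts are descriptive only. In the list of 29 genes, 21 were tested. After 6 h of CD64, 6 were called higher and 2 lower, with 4 and 2 after 2 h of CD64, 6 and 1 after 6 h of CD32, and 7 and 2 after 2 h of CD32. The median log2 change of the 21 was -0.07, -0.11, 0.29 and 0.22 in that order, beside -0.04, -0.13, -0.08 and -0.03 for all probe sets, so with CD64 it was negative although more were called higher. The share called was 38.1%, 28.6%, 33.3% and 42.9%, beside 20.6%, 15.9%, 20% and 15.5% of all probe sets. The count of 8 after 6 h of CD64 dropped to 5 without CD64 6 h replicate 2. TRIB1, a pseudokinase that marks C/EBP alpha for degradation, rose 6.87-fold after 6 h of CD32 (log2 2.78 ± 0.339 SE, adjusted p = 0.00021, limma). Its signal was 289.8 and 221.7 in CD64 6 h, 95 and 113.7 in CD64 2 h, 578.5 and 466.2 in CD32 6 h, 208 and 316.9 in CD32 2 h, and 94.4 and 60.5 in control. It rose 3.35-fold after 6 h of CD64 and 3.40-fold after 2 h of CD32 (adjusted p = 0.0613 without CD32 2 h replicate 2), and after 2 h of CD64 the change was 0.46 ± 0.339 (adjusted p = 0.441).

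CBFB, the subunit that binds RUNX proteins, had 2781.4 and 2775.8 in CD64 6 h, 2099.6 and 1973.1 in CD64 2 h, 2845.4 and 2761.8 in CD32 6 h, 4180.3 and 4350.6 in CD32 2 h, and 1776.2 and 1640.8 in control. All cross-linked arrays were above control, and the rise was 2.5-fold after 2 h of CD32 (log2 1.32 ± 0.0829 SE, adjusted p = 4.34e-06, limma), while the CBFB change after 2 h of CD64 was 0.25 (adjusted p = 0.0641). CEBPG, a dimer partner of the other C/EBP proteins, rose 2.30-fold after 2 h of CD32 (1.20 ± 0.131, adjusted p = 0.000145) and 1.67-fold after 6 h of CD32 (0.74 ± 0.131, adjusted p = 0.00235). With CD64 the rise in CEBPG was 0.59 at 6 h and 0.60 at 2 h in log2 units, the first lost without CD64 6 h replicate 2 (adjusted p = 0.0521) and the other without control replicate 1 (0.058) or CD64 2 h replicate 2 (0.0903). ID2, an inhibitor of helix-loop-helix factors, rose 3.13-fold after 2 h of CD64 (1.65 ± 0.14, adjusted p = 5.45e-05) and 2.81-fold after 6 h (1.49 ± 0.14, adjusted p = 3.84e-05). The pseudokinase TRIB3 rose in all 4 comparisons, by 1.81-fold to 5.21-fold.

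Of 46 other transcription factors of blood cells, 35 were tested. With CD64 at 6 h, 5 were called higher and 6 lower, with 3 and 11 after 2 h of CD64, 4 and 6 after 6 h of CD32, and 6 and 3 after 2 h of CD32. Their median change was -0.32, -0.33, -0.08 and 0.02 in that order, beside -0.04, -0.13, -0.08 and -0.03 for all probe sets. The share called was 31.4%, 40%, 28.6% and 25.7%, beside 20.6%, 15.9%, 20% and 15.5% of all probe sets. EGR1, an immediate early zinc finger factor, had the largest change of the list. It had 126.7 and 158.8 in CD64 6 h, 137 and 218.3 in CD64 2 h, 1038.4 and 877.8 in CD32 6 h, 153 and 136.5 in CD32 2 h, and 62.4 and 63.4 in control. All cross-linked arrays were above control, and the rise was 15.2-fold after 6 h of CD32 (log2 3.92 ± 0.313 SE, limma). The EGR1 rises of 2.26-fold after 6 h of CD64 and 2.30-fold after 2 h of CD32 were lost on leaving out any 1 array compared (adjusted p between 0.0512 and 0.14), and the 2.75-fold rise after 2 h of CD64 was lost without CD64 2 h replicate 2 (0.0897). The 14 calls after 2 h of CD64 dropped to between 6 and 8 without any 1 of the arrays compared, and the 11 after 6 h of CD64 dropped to 7, 7 and 5 without control replicate 1, control replicate 2 or CD64 6 h replicate 1. MEIS1, a homeobox factor of progenitors and leukaemia, had 308.3 and 222 in CD64 6 h, 268 and 233.4 in CD64 2 h, 155 and 232.8 in CD32 6 h, 226.5 and 266.2 in CD32 2 h, and 876.5 and 785.6 in control. Both control arrays were more than 2-fold above every cross-linked array, and MEIS1 was called lower in all 4 comparisons, by 3.17-fold to 4.37-fold. KLF4, a zinc finger factor of monocyte differentiation, was called higher in all 4, by 2.56-fold to 3.91-fold. A fit of only the groups compared ended the KLF4 calls after 2 h of CD64 (adjusted p = 0.0715, limma) and 2 h of CD32 (0.05001). Its CD64 2 h call was lost without CD64 2 h replicate 1 (adjusted p = 0.0796) and its CD32 2 h call without CD32 2 h replicate 2 (0.0566). NFE2, a leucine zipper factor of erythroid cells and platelets, fell 3.34-fold after 6 h and 3.24-fold after 2 h of CD64 and 2.66-fold after 6 h of CD32, and the change after 2 h of CD32 was -0.84 (adjusted p = 0.173). The NFE2 call of CD64 6 h was lost without CD64 6 h replicate 1 (0.0519), that of CD64 2 h without control replicate 1 (0.0533) or CD64 2 h replicate 2 (0.0684), and that of CD32 6 h on leaving out control replicate 1 (0.0816), control replicate 2 (0.0523) or CD32 6 h replicate 2 (0.111).

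Of 34 genes known as targets of C/EBP and PU.1, 28 were tested, and they went both ways. After 6 h of CD64, 6 were called higher and 6 lower, with 1 and 9 after 2 h of CD64, 7 and 2 after 6 h of CD32, and 6 and 5 after 2 h of CD32. Their median change was 0.05, -0.27, 0.29 and 0.06 in that order, beside -0.04, -0.13, -0.08 and -0.03 for all probe sets. The share called was 42.9%, 35.7%, 32.1% and 39.3%, beside 20.6%, 15.9%, 20% and 15.5% of all probe sets. The 11 calls after 2 h of CD32 dropped to 5, 6 and 4 without control replicate 2, CD32 2 h replicate 1 or CD32 2 h replicate 2. TREM1, an activating receptor of myeloid cells, had 494.2 and 392.8 in CD64 6 h, 38.4 and 103.3 in CD64 2 h, 237.2 and 159.4 in CD32 6 h, 252.2 and 342 in CD32 2 h, and 67.2 and 27.2 in control, where 1 array was under the floor. The CD64 2 h arrays overlapped with control and the others were above it. TREM1 rose 8.78-fold after 6 h of CD64, 3.87-fold after 6 h of CD32 and 5.85-fold after 2 h of CD32. The CD32 6 h rise was lost without control replicate 2 (adjusted p = 0.103) or CD32 6 h replicate 1 (0.128), and that of CD32 2 h without CD32 2 h replicate 2 (0.0573). The calgranulin S100A8 was called higher in all 4 comparisons, 3.56-fold after 6 h of CD64 and 2.01-fold after 2 h of CD32, the last lost without control replicate 2 (adjusted p = 0.0591) or CD32 2 h replicate 2 (0.0796). The primary granule gene AZU1 had 1234.1 and 1545 in CD64 6 h, 974.4 and 1169.7 in CD64 2 h, 3279.8 and 2810 in CD32 6 h, 2048.4 and 1971.9 in CD32 2 h, and 3304.5 and 4192.1 in control. It fell 2.70-fold after 6 h and 3.49-fold after 2 h of CD64, and its difference after 6 h of CD32 was -0.29 ± 0.149 log2 units (adjusted p = 0.212, limma). AZU1 was also called lower after 2 h of CD32 (-0.89). The interleukin 6 receptor gene IL6R fell 3.26-fold after 6 h of CD32 and 1.60-fold after 2 h of CD64, the last lost on leaving out any 1 array compared (adjusted p between 0.0523 and 0.138). Its change was 0.09 after 6 h of CD64 and -0.55 after 2 h of CD32, neither of them called.

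Of 19 genes known as targets of MYB, 16 were tested. With CD64 at 6 h, 3 were called higher and 4 lower, with 2 and 3 after 2 h of CD64, 3 and 6 after 6 h of CD32, and 2 and 4 after 2 h of CD32. Their median change was -0.12, -0.09, -0.58 and -0.17 in that order, beside -0.04, -0.13, -0.08 and -0.03 for all probe sets. The share called was 43.8%, 31.2%, 56.2% and 37.5%, beside 20.6%, 15.9%, 20% and 15.5% of all probe sets. The 9 calls after 6 h of CD32 dropped to 5 without control replicate 2 and to 5 without CD32 6 h replicate 1. MYC, a driver of growth, was lower in all 4 comparisons, by 1.54-fold after 2 h of CD64 and by 3.04-fold, 5.69-fold and 4.17-fold after 6 h of CD64, 6 h of CD32 and 2 h of CD32. The first of these calls was lost without control replicate 2 (adjusted p = 0.0883) or CD64 2 h replicate 1 (0.113). POLD1, the catalytic subunit of DNA polymerase delta, was called lower in all 4, by 2.78-fold and 2.62-fold after 6 h and 2 h of CD64 and by 1.71-fold and 1.82-fold after 6 h and 2 h of CD32. Both CD32 calls of POLD1 were lost without control replicate 2 (adjusted p = 0.0667 at 6 h and 0.057 at 2 h), and they were lost without CD32 6 h replicate 1 (0.0783) and CD32 2 h replicate 2 (0.063). MAT2A, which makes S-adenosylmethionine, rose 2.41-fold after 2 h of CD64 and fell 1.66-fold after 6 h of CD32, the fall being lost without control replicate 2 (0.0537) or CD32 6 h replicate 1 (0.0503). Its changes of 0.27 after 6 h of CD64 and -0.20 after 2 h of CD32 were not called. CD4, a co-receptor that monocytes also carry, was lower with CD64 and higher with CD32 at 6 h. It had 552.5 and 570.6 in CD64 6 h, 517.6 and 600 in CD64 2 h, 2473.7 and 2396.4 in CD32 6 h, 1439.5 and 1177.9 in CD32 2 h, and 950 and 1092.2 in control. CD4 fell 1.81-fold and 1.83-fold after 6 h and 2 h of CD64 and rose 2.39-fold after 6 h of CD32 (log2 1.26 ± 0.128 SE, adjusted p = 6.04e-05, limma), and its change after 2 h of CD32 was 0.35 (adjusted p = 0.0944).

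Of 14 progenitor markers 9 were tested, and 1 was called higher and 2 lower after each time of CD64, with 1 and 1 after each time of CD32. Their median change was -0.20, -0.14, -0.29 and -0.14 in the order CD64 6 h, CD64 2 h, CD32 6 h and CD32 2 h. The share called was 33.3%, 33.3%, 22.2% and 22.2%, beside 20.6%, 15.9%, 20% and 15.5% of all probe sets. The counts after 2 h of CD64 and 6 h of CD32 dropped to 1 on leaving out either control array, as they did on leaving out CD64 2 h replicate 2 for the first and CD32 6 h replicate 1 for the other. The transferrin receptor TFRC was the gene called higher, by 1.57-fold to 2.57-fold. ANPEP, the aminopeptidase CD13, was called lower in all 4, by 1.44-fold and 1.25-fold after 6 h and 2 h of CD64 and by 1.29-fold and 1.55-fold after 6 h and 2 h of CD32. The ANPEP call of CD64 2 h was lost on leaving out any 1 array compared (adjusted p between 0.0871 and 0.202), and that of CD32 6 h without control replicate 1 (0.0599), control replicate 2 (0.0562) or CD32 6 h replicate 1 (0.113). ENG, the co-receptor endoglin, fell 2.26-fold after 6 h and 1.91-fold after 2 h of CD64, the last lost without control replicate 1 (0.0596), control replicate 2 (0.0837) or CD64 2 h replicate 2 (0.132). With CD32 the ENG changes were -0.29 at 6 h and -0.25 at 2 h, and neither was called.

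Of 23 macrophage markers 19 were tested. After 6 h of CD64, 2 were called higher and 1 lower, with 0 and 1 after 2 h of CD64, 3 and 0 after 6 h of CD32, and 1 and 0 after 2 h of CD32. Their median change was 0.09, -0.13, 0.27 and 0.31 in that order, beside -0.04, -0.13, -0.08 and -0.03 for all probe sets. The share called was 15.8%, 5.26%, 15.8% and 5.26%, which was below the 20.6%, 15.9%, 20% and 15.5% of all probe sets. The count of 3 after 6 h of CD64 dropped to 1 without control replicate 2 or CD64 6 h replicate 1, and the count of 1 after 2 h of CD32 became 3 without CD32 2 h replicate 2. The fractalkine receptor CX3CR1 had 582.3 and 655.9 in CD64 6 h, 89.4 and 120.5 in CD64 2 h, 302.4 and 242.4 in CD32 6 h, 641.6 and 545.3 in CD32 2 h, and 98.1 and 100 in control. It rose 6.24-fold after 6 h of CD64, 2.73-fold after 6 h of CD32 and 5.97-fold after 2 h of CD32, and its CD64 2 h arrays overlapped with control (log2 0.07, adjusted p = 0.919, limma). CD14 read 128.6 and 71.9 in CD64 6 h, and with both control arrays under the floor it was at least 2.56-fold higher there. Leaving out control replicate 1 (adjusted p = 0.0512), control replicate 2 (0.0502) or CD64 6 h replicate 1 (0.107) ended that call, and CD14 was called in none of the other groups. FCN1, a secreted lectin, fell 2.24-fold after 6 h of CD64, a call lost on leaving out any 1 array compared (adjusted p between 0.0674 and 0.137). Its changes in the other groups, -0.81 to -0.57, were not called. CTSD, the lysosomal protease cathepsin D, fell 1.78-fold after 2 h of CD64 and rose 1.91-fold after 6 h of CD32. Its changes of -0.44 after 6 h of CD64 and 0.03 after 2 h of CD32 were not called. The lists overlap: the C/EBP and PU.1 targets share 7 genes with the macrophage markers, and the MYB targets share 2 with the progenitor markers and 2 with the other factors.

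**Figure D5:**
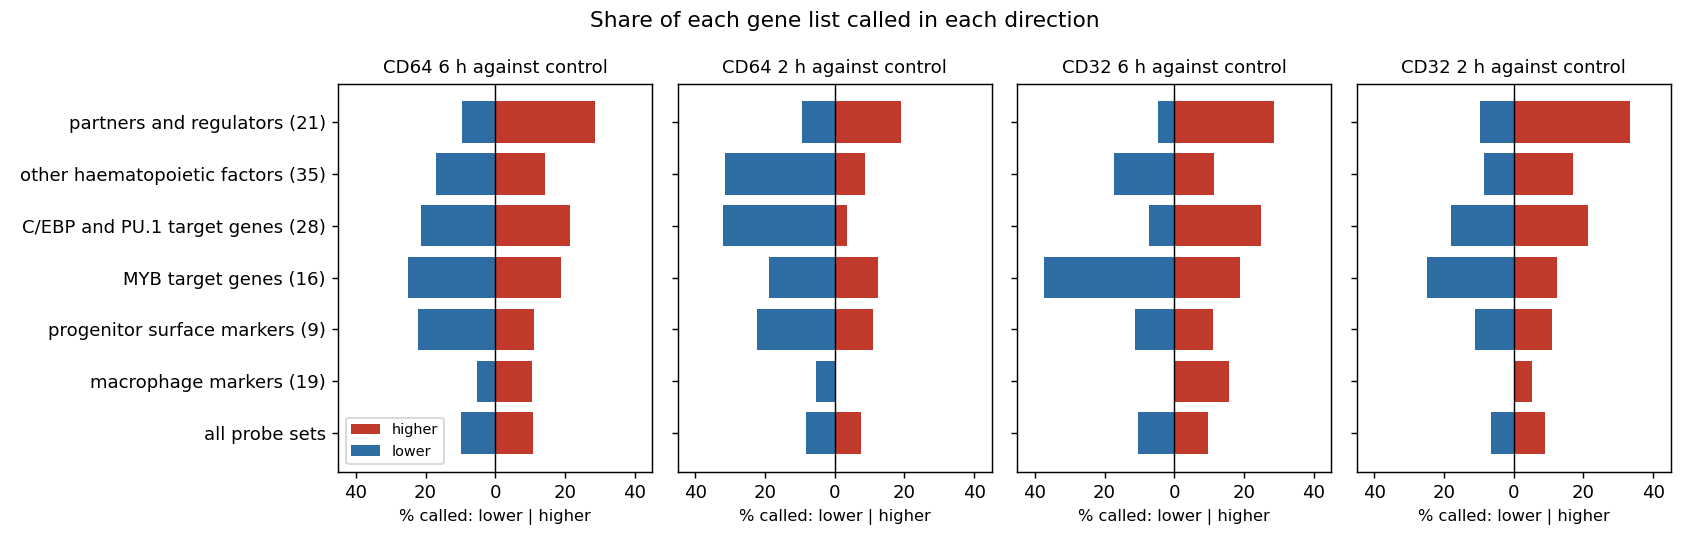
Share of each gene list called lower (left, blue) and higher (right, red) against control, in percent of the genes tested (number in brackets), with all probe sets at the bottom. After 2 h of CD64, 9 of 28 C/EBP and PU.1 target genes were lower and 1 higher, while 8.24% of all probe sets were lower and 7.64% higher.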

How the data were processed

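RNA of 10 arrays was analysed. The authors deposited 1 linear signal intensity per probe set, scaled per array: its trimmed mean, with 2% cut at either end, was 499.4 to 499.9 (read from the values). The software and the build are not given in the sources used here. Of 8793 probe sets 47 were controls; of the rest 7840 had 1 gene symbol in the platform annotation, 388 several and 518 none. Values were floored at 37.5 (percentile 25), log2 was taken, and the 7708 probe sets that exceeded the floor in 2 or more arrays entered the test with limma 3.58.1 in R 4.3.3: 1 term per group, eBayes with a variance trend, two-sided, Benjamini-Hochberg over all probe sets. Residual degrees of freedom were 5, beside a prior of 5.65. Errors are standard errors; intervals are 95%.

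The members and lists were chosen with earlier results of these data known. From each of 6 lists (154 genes, 120 tested, 1 probe set per gene by the highest mean) up to 4 called genes with the largest change were named, besides all members, the dimer partner CEBPG and the 3 most correlated genes. Promoters came from RefSeq. Alternatives were quantile and cyclic loess normalization, floors at percentiles 10 and 40, no filter, no variance trend, only the groups compared, and leaving out each array.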

Additional observations from a re-analysis of the deposited data

Results flagged for a closer look

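Differences between receptors or between times were called for 4 of the 8 factors by limma's test of the difference itself, and many of these calls depend on the setting. The count pools all the comparisons below, and the share of all probe sets called in at least 1 of them was not computed. Between CD64 and CD32, SPI1 differed by -2.40 at 6 h and by -1.58 at 2 h, and SOX4 by 0.96 at 6 h and by 0.86 at 2 h, in log2 units, beside 17.6% of all probe sets called at 6 h and 16.3% at 2 h. Between 6 h and 2 h of CD64, MYB differed by -0.71, SOX4 by -0.64 and CEBPA by -1.42, beside 13.8% of all probe sets. Between 6 h and 2 h of CD32, SOX4 differed by -0.74 and CEBPA by -1.43, beside 4.46%. The SOX4 calls between times were lost under 6 of 11 alternative settings with CD64 and under 9 of 11 with CD32. The change of MYB over time differed between the receptors by -0.58 (adjusted p = 0.0465), beside 11.5% of all probe sets, but this call was lost under 12 of 15 settings, both other normalizations among them.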

How the results depend on the processing

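Of 29 calls on the 8 factors, 16 were made under every alternative run, 13 were lost under at least 1, and 0 turned round. Among differences that were not called, a change of sign was counted 43 times, 18 of them for CEBPE. A difference was counted once for each alternative in which its sign changed. The falls of MYB and SOX4 against control were called under every alternative. Of 74 calls on named list genes 50 were made throughout and 0 turned round. The losses given above for list genes are mostly those on leaving out 1 array. Fitting only the groups compared also ended calls on EGR1, KLF4, S100A8, ENG, ANPEP, CEBPG, CD14, FCN1 and MAT2A. Dropping the filter ended calls on ENG and TREM1, and dropping the variance trend ended calls on IL6R, MYC, ANPEP and CEBPG. Cyclic loess ended a call on IL6R, and the floor at percentile 10 ended that on FCN1. A quantile normalization moved the median of all changes after 2 h of CD64 against control to -0.0022, against -0.13 as deposited, that of CD64 against CD32 at 2 h to -0.0012, against -0.11, and that of the interaction to 0.00039, against 0.16. Upward calls after 6 h of CD32 against 2 h were 45.6% as deposited and 56.1% under cyclic loess.

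Leaving out 1 array (the lone array is then assumed to vary like the other groups) gave these counts of factors: 3 to 5 of 6 for CD64 6 h against control, 2 to 4 of 4 for CD64 2 h, 4 to 5 of 5 for CD32 6 h, 3 to 4 of 4 for CD32 2 h, 2 to 3 of 2 for CD64 against CD32 at 6 h, 0 to 2 of 2 at 2 h, 2 to 2 of 3 for CD64 6 h against 2 h, 0 to 1 of 2 for CD32 6 h against 2 h, and 0 to 1 of 1 for the interaction. In the same order all probe sets called were 1003 to 1339 (1591 with all arrays), 671 to 1037 (1224), 986 to 1357 (1539), 639 to 909 (1192), 704 to 976 (1357), 652 to 803 (1256), 469 to 635 (1065), 61 to 142 (344) and 493 to 666 (884).

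For the factors, the count for CD32 6 h against 2 h (2) was 1 under quantile, cyclic loess and no filter and 0 without the variance trend; the interaction (1) was 0 under each of these and without the control arrays. Without the variance trend all probe sets called were 725 for CD64 2 h against control, 830 for CD64 against CD32 at 2 h, 579 for CD64 6 h against 2 h, 54 for CD32 6 h against 2 h and 417 for the interaction. Quantile normalization gave 572 for the interaction, and a fit of only the groups compared gave 767 for CD64 2 h against control. The cause was not tested.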
